A study of Mus musculus with 6 samples.

Results

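The genes of the mitochondrial respiratory chain were examined in lung cells sorted for a Pdgfra reporter. Members were taken by symbol: Ndufa, Ndufb, Ndufc, Ndufs and Ndufv genes of complex I, Sdha to Sdhd of complex II, Uqcr genes of complex III, Cox4 to Cox8 genes of complex IV, and the protein-coding genes of mitochondrial DNA. The rule found 80 of 48397 symbols, 67 encoded in the nucleus and 13 in mitochondrial DNA, and did not use their measured values. All samples carried the PdgfraEGFP/+ reporter genotype, which marks PDGF receptor alpha-expressing mesenchyme with green fluorescence, and so did the timed pregnant dams. Dams received an intraperitoneal injection at E18.5, shortly before birth, of either 5E1, a monoclonal antibody that binds hedgehog ligands, or control IgG, and lungs of their pups were taken at postnatal day 8. Live fluorescent cells were sorted and bulk RNA was sequenced, giving 3 libraries per group. Pup sex, dose and whether a library pools pups are not given in the labels.

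The respiratory chain of the inner mitochondrial membrane carries electrons from food-derived NADH and succinate to oxygen. Complex I accepts electrons from NADH, complex II from succinate, complex III passes them to cytochrome c, and complex IV hands them to oxygen, while complexes I, III and IV pump protons that drive ATP synthase. Most subunits are made from nuclear genes and imported, but the hydrophobic core of complexes I, III and IV and parts of ATP synthase are made inside the organelle from mitochondrial DNA, whose genes are transcribed as long joint precursors and then cut apart.

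Gene counts summed to 16958433 to 28405457 reads in IgG libraries and 18857199 to 34318583 in 5E1 libraries. Of 16198 genes tested, 3757 (23.2%) passed an edgeR adjusted p of 0.05 (they are here called), 1966 (12.1%) higher and 1791 (11.1%) lower in 5E1. The count was 2497 without IgG replicate 1, 2305 without IgG replicate 2 and 2410 without 5E1 replicate 3. IgG replicate 3 and 5E1 replicate 1 held 2 reads each of Y-linked genes and the other libraries 3592 to 6913, so the groups are alike in this. Defining mesenchymal genes were abundant in every library: Pdgfra lay at 413 to 556 CPM in IgG and 574 to 720 CPM in 5E1, where CPM is edgeR's library-scaled level, a gene's reads divided by the TMM-scaled library total. Markers of other cell types were also present, and their values are given with the results they move with. In bulk RNA, fewer cells of a type and less RNA per cell cannot be told apart.

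Several mitochondrial genes have near-identical stretches in the nuclear genome, and because this bears on their counts, the sequences are shown first. The stretches of mt-Co1 (GRCm38 chrM:6381-6500, plus strand) and of its counterpart on chromosome 1, the gene model Gm29216 (chr1:24616078-24616197, minus strand), are aligned without gaps, with capitals at the bases that differ. The first 120 bases of mt-Nd3 (chrM:9459-9578, plus strand) and of the model Gm28438 (chr1:24613000-24613119, minus strand) are shown in the same way.
mt-Co1: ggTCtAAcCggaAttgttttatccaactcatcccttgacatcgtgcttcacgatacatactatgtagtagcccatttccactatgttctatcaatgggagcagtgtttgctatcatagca
Gm29216: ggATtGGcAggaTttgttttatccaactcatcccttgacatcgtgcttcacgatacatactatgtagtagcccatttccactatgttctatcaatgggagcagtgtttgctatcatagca
mt-Nd3: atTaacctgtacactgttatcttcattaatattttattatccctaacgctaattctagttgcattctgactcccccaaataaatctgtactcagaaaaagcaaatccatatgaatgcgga
Gm28438: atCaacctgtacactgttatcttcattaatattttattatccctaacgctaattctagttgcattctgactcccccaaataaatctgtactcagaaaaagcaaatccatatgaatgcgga
The stretch of mt-Co1 differed from its copy at 6 bases, all near its first end, and the whole 492-base model matched mt-Co1 at 98.78% of bases. The whole 345-base copy of mt-Nd3 differed at 1 base. The copies of mt-Co2 (Gm28661), mt-Atp6 (Gm10925), mt-Co3 (Gm28437), mt-Nd4l (Gm10222) and mt-Nd4 (Gm28439) differed at 0 of 681, 678, 783, 294 and 876 aligned bases. All 7 models lie on the minus strand of chromosome 1 between 24611535 and 24616197 (GRCm38), in the order the genes have in mitochondrial DNA.

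Promoters of 2 genes that fell, Ndufa11 and Uqcr11, are shown because both hold the recognition sequence of NRF1, a transcription factor known for binding promoters of respiratory chain genes. Each runs from 250 bases before to 50 bases after the start site in RefSeq on GRCm38.p6, read on the gene's strand, with motif matches in capitals.
Ndufa11, chr17:56717512-56717811, plus strand: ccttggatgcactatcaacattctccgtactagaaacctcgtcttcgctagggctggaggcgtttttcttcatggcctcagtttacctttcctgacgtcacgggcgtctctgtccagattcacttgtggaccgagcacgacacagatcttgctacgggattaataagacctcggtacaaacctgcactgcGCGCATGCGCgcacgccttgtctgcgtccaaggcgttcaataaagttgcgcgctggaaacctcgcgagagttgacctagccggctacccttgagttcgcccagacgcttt
Uqcr11, chr10:80406772-80407071, minus strand: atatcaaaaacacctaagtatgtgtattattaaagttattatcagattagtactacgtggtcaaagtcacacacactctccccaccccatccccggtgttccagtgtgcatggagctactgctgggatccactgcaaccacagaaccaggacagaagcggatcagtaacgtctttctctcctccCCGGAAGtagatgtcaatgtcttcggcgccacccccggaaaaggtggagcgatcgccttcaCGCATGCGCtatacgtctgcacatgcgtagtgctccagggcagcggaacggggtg
In Ndufa11 the capitals span 2 overlapping matches, 1 on each strand, since the motif (GCGCATGCG) is nearly its own reverse complement. In Uqcr11 the NRF1 match begins 5 bases before the start site, and the other capitals are the ETS motif (CCGGAAG), which GABPA binds, beginning 66 bases before it.

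Promoters were held for 52 of the 67 nuclear members, and all motifs were searched on both strands. The NRF1 motif stood in 5 of them (9.62%), namely Cox6a1, Ndufa11, Ndufa8, Uqcr11 and Uqcrc1, against 1.95% of all 27025 promoters in the table and 3.79% of the 11165 that belong to tested genes. The ETS motif stood in 11 (21.2%, against 9.93% and 18.3%) and the YY1 motif (AAGATGGCG) in 5 (9.62%, against 1.64% and 3.25%). The motif of estrogen-related receptors (TCAAGGTCA) stood only in Sdhd (1.92%, against 0.466% and 0.34%). A match is a description of letters in this window. The promoters of the other 4 called nuclear members, Ndufa4, Ndufa6, Cox6b2 and Cox8b, held none of these 4 letter strings.

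Nuclear-encoded genes of the chain moved little, and the few that were called split in direction. Of 63 nuclear members tested, 3 fell (Ndufa11, Ndufa4 and Uqcr11), 3 rose (Ndufa6, Cox6b2 and Cox8b) and 57 did not pass. The called share was 9.52%, against 23.2% of all genes tested. The median log2 fold change of 5E1 over IgG was -0.13 over the 63 members and 0.00087 over all genes, with 49 members below 0 and 14 above. In 47 of the 63 the log2 fold change was within 0.25 of 0. In 47 an interval set by the normal distribution's 95% multiple of the standard error (SE) lay within 0.5 of 0. That interval is narrower than the edgeR test implies. For Sdhb it excluded 0 (-0.326 to -0.00359), although the unadjusted edgeR p was 0.0708. The count of 47 intervals may therefore be too high. The 3 libraries of 5E1 all lay below those of IgG for 20 members and all above for 4, and the groups overlapped for 39. Among all genes tested these shares were 21.4% lower, 20.8% higher and 42.2% in either direction. The count of calls depends on the scaling: with library size alone, where the median of all genes was -0.14, 2 nuclear members were called higher and 20 lower. With offsets for the merged exon length of a gene and the GC content of its longest transcript, 3 were called higher and 15 lower. Without IgG replicate 3 the count of calls was 4 and without 5E1 replicate 1 it was 9.

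As a share of all gene counts, nuclear members took 0.313%, 0.315% and 0.342% in the IgG libraries and 0.289%, 0.278% and 0.25% in the 5E1 libraries. The groups did not overlap, with 0.323% ± 0.0159 in IgG and 0.272% ± 0.0199 in 5E1 (SD, n = 3 each). Wilson 95% intervals were no wider than 0.0027 percentage points to either side, covering counting error only. On the TMM scale the gap was smaller: members summed to 2993 to 3203 CPM in IgG and 2785 to 2955 CPM in 5E1, still without overlap. The 13 mitochondrial genes together took 1.12% ± 0.0722 of gene counts in IgG and 1.16% ± 0.107 in 5E1, and these groups overlapped. Since the sums follow from the choice of members, no test was made on them.

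**Figure D1:**
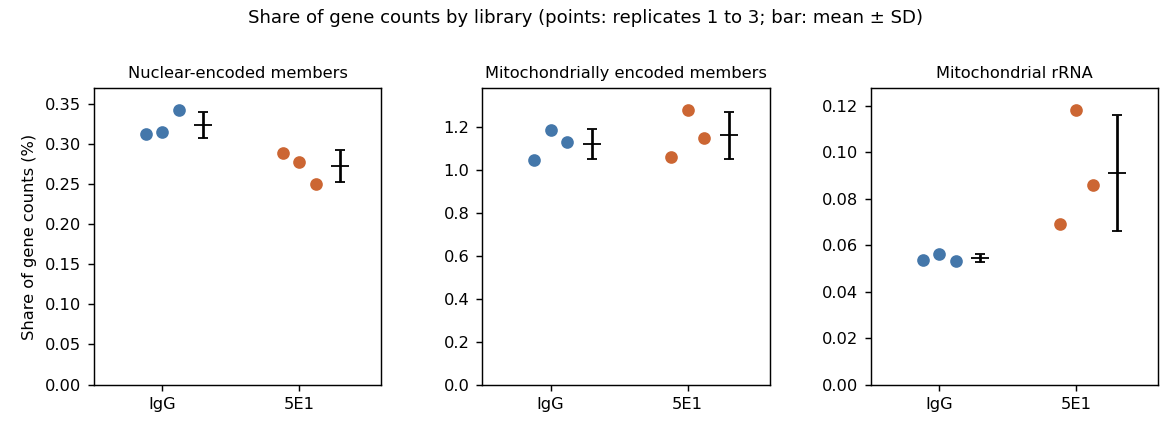
Share of gene counts (y axis, percent) taken by nuclear members, mitochondrial members and the mitochondrial rRNA genes in each library, with the mean ± SD beside the 3 points of a group. Nuclear members took less and mitochondrial rRNA more in every 5E1 library than in any IgG library, while the mitochondrial members overlapped.

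Complex I, the largest of the chain, had 36 nuclear members tested, of which 1 rose and 2 fell. Ndufa11 encodes an accessory subunit of the membrane arm. Its level was 55.4, 56.2 and 61.1 CPM in the IgG libraries and 41.2, 29.3 and 37.5 CPM in the 5E1 libraries. Every 5E1 library lay below every IgG library, a 1.6-fold lower level (log2 fold change -0.68, SE 0.12, edgeR adjusted p 0.00287). The gene lies at chr17:56717767-56722141 (GRCm38, plus strand), its exons share 70 bases with Vmac on the opposite strand, and whether the counting used strand is not given in the sources used here.

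Ndufa4 (chr6:11900292-11907497, minus strand) was named for complex I but its protein was later found in complex IV. By its symbol it is counted here with complex I and its accessory members, not with complex IV. It lay at 101, 105 and 116 CPM in IgG and at 78.3, 73.3 and 75.96 CPM in 5E1. The groups were apart with a narrow spread, and the level was 1.42-fold lower (log2 fold change -0.51, SE 0.08, edgeR adjusted p 0.00181). It was the most abundant of the 6 called nuclear members per length, at 177 CPM per kilobase in IgG and 124 CPM per kilobase in 5E1. Ndufa6 (chr15:82350140-82354322, minus strand), an accessory subunit of the LYR family, went the other way, from 36.5, 36.98 and 38.5 CPM in IgG to 48.9, 51.1 and 48.9 CPM in 5E1. The libraries of each group agreed closely, and the rise was 1.33-fold (log2 fold change 0.41, SE 0.08, edgeR adjusted p 0.00494). With library size alone it had the same direction with an adjusted p of 0.0592.

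Ndufc1, another accessory subunit, lay at 23.8, 25.7 and 24.4 CPM in IgG and 22.3, 17.8 and 17.3 CPM in 5E1. The groups did not overlap but the edgeR adjusted p was 0.0529, at a log2 fold change of -0.37 (SE 0.12). The 7 core subunits encoded in the nucleus, among them Ndufv1 and Ndufv2, hold the flavin and iron-sulfur centres and had a median log2 fold change of -0.13. None was called by edgeR, DESeq2 or limma-voom, and 1 (Ndufv2) had an unadjusted edgeR p under 0.05. The 29 accessory members had a median of -0.15. Over the 33 complex I members that were not called, the log2 fold change ran from -0.37 to 0.10. Ndufb4 shares 33.4% of its 100-base windows with Ndufb4c, so its counts are uncertain.

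Complex II, which is also the succinate dehydrogenase of the citric acid cycle, is encoded wholly in the nucleus. None of its 4 genes was called by edgeR, DESeq2 or limma-voom, and 1 (Sdhc) had an unadjusted edgeR p under 0.05. With library size alone, where the median of all genes was -0.14, edgeR called Sdha, Sdhb and Sdhc lower (adjusted p 0.0234, 0.0234 and 0.0254). Sdha, the flavoprotein, lay at 141, 141 and 138 CPM in IgG and 124, 128 and 129 CPM in 5E1 (log2 fold change -0.14, SE 0.08, edgeR adjusted p 0.2). Sdhb, the iron-sulfur subunit, lay at 57.8, 55.2 and 59.8 CPM in IgG and 48.3, 52.4 and 53.4 CPM in 5E1 (log2 fold change -0.16, SE 0.08, adjusted p 0.174). Sdhc, a membrane anchor, lay at 78.1, 79.7 and 76.4 CPM in IgG and 71.8, 70.99 and 64.96 CPM in 5E1 (log2 fold change -0.17, SE 0.08, adjusted p 0.133). In these 3 genes the groups did not overlap, and with TMM scaling the differences did not pass. The other anchor, Sdhd, lay at 62.2, 66.4 and 59.6 CPM in IgG and at 62.97, 65.8 and 66.3 CPM in 5E1, where the groups overlapped (log2 fold change 0.05, SE 0.08). The intervals of all 4 genes, from the same multiple of the SE, lay within 0.5 of 0 on the log2 scale. They too are narrower than the edgeR test implies.

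Of the complex III members, 8 were tested and 1 fell. Uqcr11, a small membrane subunit, lay (chr10:80402997-80406830, minus strand) at 30.8, 32.9 and 34.1 CPM in IgG and 26.98, 18.47 and 21.9 CPM in 5E1. All 5E1 libraries were below all IgG libraries, 1.46-fold on average (log2 fold change -0.54, SE 0.14, edgeR adjusted p 0.015). The adjusted p was 0.0569 without IgG replicate 3 and 0.0519 without 5E1 replicate 3. Uqcrq, another small subunit, lay at 35.1, 30.4 and 42.97 CPM in IgG and 32.1, 25.99 and 27.3 CPM in 5E1, with overlap (log2 fold change -0.35, SE 0.14, adjusted p 0.0855).

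Uqcrh, the hinge protein near cytochrome c1, was the most abundant nuclear member per length at 237 CPM per kilobase in IgG. Its level was 133, 127 and 129 CPM in IgG and 142, 160 and 141 CPM in 5E1, higher in every 5E1 library without passing the test (log2 fold change 0.19, SE 0.08, edgeR adjusted p 0.131). Uqcr10 lay at 45.3, 44.6 and 45.8 CPM in IgG and 43.9, 36.4 and 37.9 CPM in 5E1, lower in every 5E1 library and likewise not called (log2 fold change -0.20, SE 0.09, adjusted p 0.144). The pseudogenes Uqcrh-ps1 and Uqcrh-ps2, which the symbol rule also takes, held 0 to 12 reads per library and were not tested. The other 4 tested members, including the core proteins Uqcrc1 and Uqcrc2 and the Rieske protein Uqcrfs1, had adjusted p-values that did not pass, and the whole complex had a median log2 fold change of -0.09.

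Complex IV is where tissue forms of subunits exist side by side, and the 2 genes that rose among its 15 tested nuclear members are such forms. Cox6b2 (chr7:4751792-4753094, minus strand), known as the testis form of its subunit, lay at 14.7, 14.04 and 21.1 CPM in IgG and 26.6, 39.0 and 32.6 CPM in 5E1. All 5E1 libraries were above all IgG libraries, 1.97-fold on average (log2 fold change 0.98, SE 0.18, edgeR adjusted p 0.00479). Its common counterpart Cox6b1 lay at 107, 111 and 101 CPM in IgG and 94.6, 99.4 and 81.7 CPM in 5E1, lower in every 5E1 library without passing the test (log2 fold change -0.21, SE 0.09, adjusted p 0.129). Per length, Cox6b1 stood at 172 CPM per kilobase in IgG and 149 CPM per kilobase in 5E1, and Cox6b2 at 28.4 and 55.9 CPM per kilobase.

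Cox8b (chr7:140898945-140900446, minus strand), the form of heart, skeletal muscle and brown fat, rose from 1.26, 0.168 and 0.762 CPM in IgG to 2.28, 4.4 and 2.02 CPM in 5E1. These levels rest on 37, 3 and 21 reads in IgG and 42, 148 and 55 reads in 5E1. The groups did not overlap, but the libraries of each group were far apart (log2 fold change 1.93, SE 0.54, edgeR adjusted p 0.0295). The adjusted p was 0.052 without IgG replicate 2, 0.102 without IgG replicate 3, 0.0825 without 5E1 replicate 2, 0.0763 with the replicate number as a block and 0.0548 with a term for the libraries without Y-linked reads. The common form Cox8a lay far above it, at 72.5, 75.9 and 82.6 CPM in IgG and 75.7, 66.1 and 69.3 CPM in 5E1 (log2 fold change -0.13, SE 0.09, adjusted p 0.305). Cox8c had 0 reads in every library.

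Of 12 muscle genes, 9 were tested and 2 rose (22.2%, against 12.1% higher among all genes tested). They were Myh6, a cardiac myosin (2.29 to 4.83 CPM in IgG, 6.47 to 11.4 CPM in 5E1, edgeR adjusted p 0.0151), and Ckm, muscle creatine kinase (0.0363 to 0.17 CPM in IgG, 0.515 to 1.16 CPM in 5E1, adjusted p 0.0202). Ckm passed the low-count filter only through the 5E1 libraries, where it is high, so its call and the share of 22.2% depend on that filter. The calls of both were lost without IgG replicate 2 or 3, and that of Ckm also without 5E1 replicate 2, with adjusted p-values up to 0.0572 for Myh6 and 0.083 for Ckm. The summed level of the 12 genes was 16.5 to 23.7 CPM in IgG and 27.7 to 38.5 CPM in 5E1, and it was highest in 5E1 replicate 2, as Cox8b was. Nppa was at 0 in 5 of the 6 libraries. The part of muscle RNA in the level of Cox8b was not tested.

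The remaining isoform pairs of complex IV gave no call. Cox4i1, the ubiquitous form of the largest nuclear subunit, lay at 122, 131 and 137 CPM in IgG and 139, 127 and 136 CPM in 5E1 (log2 fold change 0.05, SE 0.08). The lung form, Cox4i2, lay at 3.78, 4.92 and 4.35 CPM in IgG and 4.4, 5.47 and 3.09 CPM in 5E1 (log2 fold change -0.00, SE 0.25), so the groups overlapped for both. Per length, Cox4i1 was at 170 CPM per kilobase and Cox4i2 at 5.94 CPM per kilobase in IgG. The liver form Cox6a1 lay at 67.9 to 85.6 CPM in IgG and 55.9 to 79.4 CPM in 5E1. The muscle form Cox6a2 lay at 0.715, 0.224 and 0.0363 CPM in IgG and 0.271, 1.28 and 0.441 CPM in 5E1, too few reads to show a difference of this size (log2 fold change 1.03, SE 0.86, adjusted p 0.419).

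Cox7a2, the common form, lay at 75.1 to 85.1 CPM in IgG and 70.03 to 82.5 CPM in 5E1, and its muscle form Cox7a1 at 0.671 to 0.987 CPM in IgG and 0.327 to 0.923 CPM in 5E1, with overlap for both. Cox7b lay at 74.8, 78.6 and 80.5 CPM in IgG and 73.99, 68.9 and 61.1 CPM in 5E1 (log2 fold change -0.20, SE 0.09, edgeR adjusted p 0.133). The counterpart Cox7b2 had 0 reads in the IgG libraries and 4, 5 and 1 reads in the 5E1 libraries, and was too low to test. Cox6c, a membrane subunit, lay at 126, 125 and 133 CPM in IgG and 109, 119 and 101 CPM in 5E1, lower in every 5E1 library but not called (log2 fold change -0.22, SE 0.09, adjusted p 0.084).

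**Figure D2:**
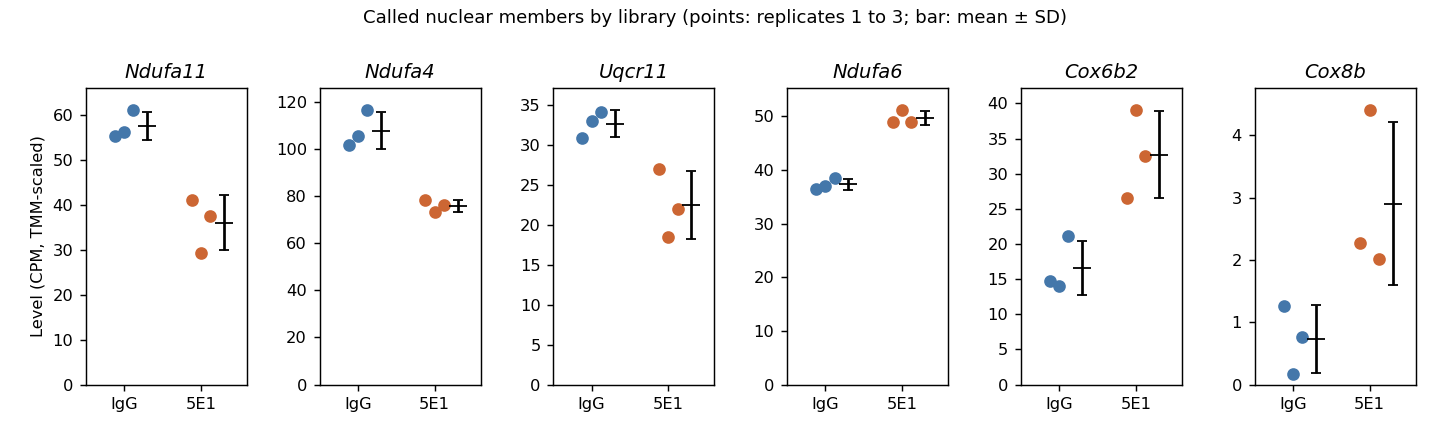
Level (y axis, CPM on TMM-scaled library sizes, each panel with its own scale from 0) of the 6 called nuclear members in each library, with the mean ± SD beside the 3 points of a group. In every panel the 5E1 points lie wholly below (Ndufa11, Ndufa4, Uqcr11) or above (Ndufa6, Cox6b2, Cox8b) the IgG points, and the 5E1 points of Cox8b range from 2.02 to 4.4 CPM.

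None of the 11 tested mitochondrial genes was called by edgeR, DESeq2 or limma-voom, and 1 (mt-Co3) had an unadjusted edgeR p under 0.05. All 11 had log2 fold changes above 0 with TMM scaling, from 0.02 to 0.61 with a median of 0.16, but 2 fell below 0 with library size alone, 5 with length and GC offsets, 1 without IgG replicate 1, 1 without IgG replicate 3 and 3 without 5E1 replicate 2. The median was 0.32 without 5E1 replicate 1, 0.27 without IgG replicate 2 and 0.06 without 5E1 replicate 2. The nuclear median lay below the mitochondrial median in all 17 alternative fits.

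Of the complex IV core encoded in mitochondrial DNA, mt-Co1 holds the site where oxygen is reduced. It was the most abundant member at 4388, 4868 and 4621 CPM in IgG and 4956, 5637 and 5912 CPM in 5E1. Every 5E1 library lay above every IgG library, by an amount that did not pass (log2 fold change 0.25, SE 0.13, edgeR adjusted p 0.193). The cytochrome b gene of complex III, mt-Cytb, lay at 1998, 2235 and 2047 CPM in IgG and 1941, 2403 and 2194 CPM in 5E1, with overlap (log2 fold change 0.06, SE 0.12).

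The complex I genes of mitochondrial DNA encode its proton-pumping membrane core. Their levels were, for mt-Nd1, 1299, 1482 and 1441 CPM in IgG and 1471, 1803 and 1744 CPM in 5E1 (log2 fold change 0.25, SE 0.12, edgeR adjusted p 0.162). For mt-Nd2 they were 944, 1022 and 933 CPM in IgG and 944, 1210 and 1052 CPM in 5E1 (log2 fold change 0.15, SE 0.12). Both overlapped between the groups, and in both the lowest 5E1 library was replicate 1. Levels of mt-Nd4 were 635, 701 and 672 CPM in IgG and 654, 792 and 786 CPM in 5E1 (log2 fold change 0.15, SE 0.11). Levels of mt-Nd5 were 727, 814 and 748 CPM in IgG and 751, 976 and 948 CPM in 5E1 (log2 fold change 0.22, SE 0.12). The only member read from the other strand, mt-Nd6, lay at 137, 179 and 159 CPM in IgG and 161, 197 and 168 CPM in 5E1 (log2 fold change 0.15, SE 0.12), and it shares 14 bases with mt-Nd5. These 3 genes overlapped between groups as well, with adjusted p-values of 0.211 to 0.385.

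The other 6 mitochondrial genes were listed at levels far below their neighbours. In IgG, mt-Co2 stood at 2.71, mt-Co3 at 2.63, mt-Nd3 at 1.68, mt-Atp6 at 1.57, mt-Atp8 at 0.475 and mt-Nd4l at 0.406 CPM per kilobase. The 7 genes above stood at 305 (mt-Nd6) to 2990 (mt-Co1) CPM per kilobase. In 5 of the 6 low genes, nearly all windows of 100 bases recur in another annotated transcript, namely 99.5% in mt-Co2, 99.5% in mt-Atp6, 99.9% in mt-Co3, 97.6% in mt-Nd3 and 98.5% in mt-Nd4l. Among the 7 high genes the share was 60.8% in mt-Nd4, 30.8% in mt-Co1, 3.19% in mt-Nd2 and 0% in the others.

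The sixth low gene, mt-Atp8, shared 0% of its windows with an annotated transcript. It lies after mt-Co2 and shares its last 43 bases with mt-Atp6 on the same strand. The chromosome 1 sequence between the copies of mt-Co2 and mt-Atp6 holds no annotated transcript and was not compared. The part of the overlap in the count of mt-Atp8 was not tested. HTSeq tallies multiply aligned reads separately. They made up 5.27% to 5.4% of all reads in IgG libraries and 5.7% to 6.26% in 5E1 libraries, without overlap. That total includes unaligned reads, which were 31.3% to 42.9% in IgG and 20.4% to 36.3% in 5E1. Shares of aligned reads alone were not computed. The copies themselves held 15 to 501 reads per library, and none of the 7 was called. How far multiple alignment sets the level of the low genes was not tested, and their values are uncertain.

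Among the low genes, mt-Co3 lay at 2.04, 2.18 and 1.958 CPM in IgG and 2.71, 3.48 and 3.16 CPM in 5E1, higher in every 5E1 library (log2 fold change 0.61, SE 0.25, edgeR p 0.036, adjusted p 0.109). The others overlapped between groups. Their levels were 1.4, 2.24 and 1.92 CPM in IgG and 1.9, 2.05 and 1.62 CPM in 5E1 for mt-Co2 (log2 fold change 0.02, SE 0.31). They were 1.12, 1.29 and 0.798 CPM in IgG and 0.814, 1.37 and 1.32 CPM in 5E1 for mt-Atp6 (0.16, SE 0.39). They were 0.579, 0.671 and 0.508 CPM in IgG and 0.597, 1.07 and 0.441 CPM in 5E1 for mt-Nd3 (0.29, SE 0.49). With 1 to 4 reads per IgG library and 2 to 10 per 5E1 library, mt-Atp8 and mt-Nd4l could not be tested. Over the 7 tested genes that share at most 90% of their 100-base windows, mt-Nd4 with its 60.8% included, the median log2 fold change was 0.15, with a range of 0.06 to 0.25.

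**Figure D3:**
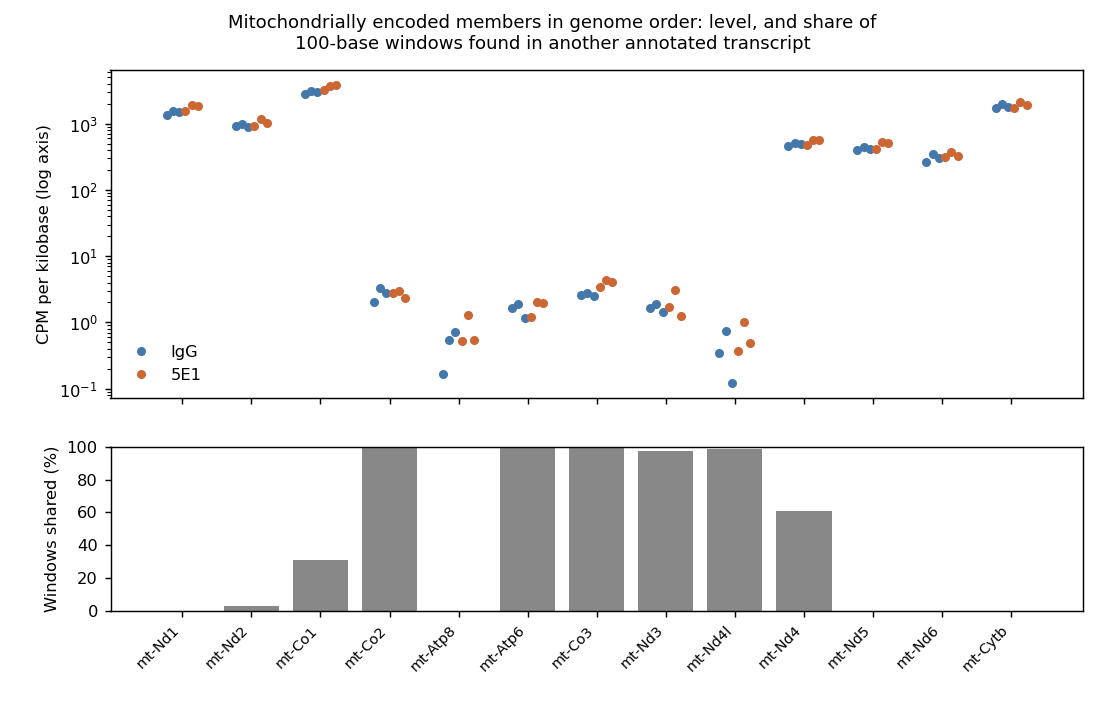
Upper panel, level per length (y axis, CPM per kilobase, log axis) of the 13 mitochondrial members in genome order, with 1 point per library. Lower panel, percent of each gene's 100-base windows found in another annotated transcript, where the 5 bars from 97.6% to 99.9% stand under genes at 0.406 to 2.71 CPM per kilobase in IgG, and mt-Atp8 is low with a bar of 0%.

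Values are given for 3 transcripts of mitochondrial DNA that are not members of the chain, mt-Rnr1, mt-Rnr2 and mt-Tp. Each was called higher, as were 12.1% of all genes tested. How many other such transcripts were tested is not given here. The rRNA genes mt-Rnr1 and mt-Rnr2 rose: mt-Rnr1 lay at 176, 179 and 172 CPM in IgG and 252, 440 and 321 CPM in 5E1 (log2 fold change 0.95, SE 0.18, edgeR adjusted p 0.00597), and mt-Rnr2 at 344, 356 and 326 CPM in IgG and 453, 763 and 637 CPM in 5E1 (0.85, SE 0.16, adjusted p 0.00533). Both were called in all 17 alternative fits. Together they took 0.0544% ± 0.00166 of all gene reads in IgG libraries and 0.0909% ± 0.0248 in 5E1 libraries (SD, n = 3 each), highest in 5E1 replicate 2. The tRNA gene mt-Tp also rose (0.59, SE 0.15, adjusted p 0.0163), with an adjusted p of up to 0.0956 in 3 of the alternative fits, which leave out IgG replicate 1 or 3 or add length and GC offsets. The kit selects poly(A) RNA, and nuclear-encoded ribosomal RNA listed as Rn18s-rs5 rose as well, from 132, 113 and 103 CPM in IgG to 208, 162 and 167 CPM in 5E1 (0.63, SE 0.12, adjusted p 0.00479). Within 5E1 it was highest in replicate 1, where mt-Rnr1 and mt-Rnr2 were lowest. The part of rRNA carried through the selection was not tested.

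Genes that belong with the chain but escape the symbol rule included 2 of 6 that rose (33.3%, against 12.1% higher among all genes tested). Cox7a2l, which joins complexes III and IV in supercomplexes, rose from 84.8, 71.8 and 80.3 CPM in IgG to 103, 114 and 112 CPM in 5E1 (log2 fold change 0.48, SE 0.09, edgeR adjusted p 0.00363). Ndufa4l2, a paralog of Ndufa4 known to be induced by low oxygen, rose from 6.02, 5.88 and 5.8 CPM to 9.83, 10.4 and 14.1 CPM (0.95, SE 0.18, adjusted p 0.00386). It therefore moved opposite to Ndufa4 itself, and both calls held in all 17 alternative fits. Cycs, the somatic cytochrome c gene, lay at 23.3 to 25.4 CPM in IgG and 17.1 to 25.6 CPM in 5E1, with overlap. The other 3 were not called.

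ATP synthase uses the proton gradient. Of its 16 nuclear genes tested, 2 fell and none rose (12.5%, against 11.1% lower among all genes tested). The list's median was -0.17 on the log2 scale, and 7 were called lower with library size alone. Atp5e fell from 77.04 to 83.7 CPM in IgG to 55.7 to 69.2 CPM in 5E1 (-0.40, SE 0.09, edgeR adjusted p 0.0126), and Atp5k from 48.9 to 49.7 CPM to 33.5 to 42.4 CPM (-0.36, SE 0.10, adjusted p 0.0256). The call of Atp5k was lost without any 1 of IgG replicates 1, 2 or 3 or 5E1 replicate 3, with an adjusted p of up to 0.0921. Without any 1 of those 4 libraries 1 gene of the list was called. Atp5g1, at -0.30 (SE 0.11), had an adjusted p of 0.0638.

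Of 42 assembly factors tested, 3 fell and 1 rose (9.52%, against 23.2% of all genes tested), with a median of -0.20. Ndufaf3, needed to build complex I, had the strongest fall, from 8.07, 10.01 and 10.99 CPM in IgG to 5.81, 4.13 and 4.34 CPM in 5E1 (log2 fold change -1.03, SE 0.20, edgeR adjusted p 0.00463), and was called in all 17 alternative fits. Coa7, a complex IV assembly factor, fell (-0.65, SE 0.20, adjusted p 0.038) and Higd1a, a hypoxia-induced factor of the chain, rose (0.29, SE 0.09, adjusted p 0.0374). Both calls were lost without any 1 of the 3 IgG replicates, without 5E1 replicate 3, and without 5E1 replicate 1 (Coa7) or 2 (Higd1a). Over all alternatives their adjusted p-values reached 0.127 for Coa7 and 0.295 for Higd1a. The list's count of 4 was 1 without any 1 of the IgG replicates or 5E1 replicate 3, and with library size alone it was 0 higher and 8 lower.

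Of 73 genes of the mitochondrial ribosome, which translates the 13 mitochondrial members, 12 fell and none rose (16.4%, against 11.1% lower among all genes tested), with a median of -0.22. Mrpl17 fell from 21.9 to 24.9 CPM in IgG to 14.1 to 17.5 CPM in 5E1 (-0.59, SE 0.12, edgeR adjusted p 0.00701) and Mrpl49 from 21.7 to 24.8 CPM to 14.3 to 17.4 CPM (-0.53, SE 0.12, adjusted p 0.0101). Mrps6 fell by 0.87 (SE 0.21, adjusted p 0.0141), with adjusted p-values of up to 0.0542 without IgG replicate 3 or 5E1 replicate 3. The count was 3 without IgG replicate 1, 5 without IgG replicate 2, 4 without IgG replicate 3, 7 without 5E1 replicate 2 and 5 without 5E1 replicate 3. It was 24 with library size alone, 19 with length and GC offsets and 6 with the replicate block. The cytosolic ribosome went the other way, with 57 of 75 genes higher (76%, against 12.1% of all genes tested), none lower and a median of 0.38. That count was 20 without IgG replicate 1, 13 without IgG replicate 2, 37 without IgG replicate 3 and 6 with library size alone. Rpl35a, for example, rose from 161 to 176 CPM in IgG to 216 to 267 CPM in 5E1 (0.51, SE 0.10, adjusted p 0.00417).

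Of 29 genes for copying and expressing mitochondrial DNA, 1 fell and none rose (3.45%, against 11.1% lower among all genes tested). Mgme1, a nuclease of mitochondrial DNA replication, fell by 0.63 (SE 0.18, edgeR adjusted p 0.0284), but its call was lost with the replicate block and without IgG replicate 1 or 2 or 5E1 replicate 1 or 3 (adjusted p up to 0.11). Mtpap, the mitochondrial poly(A) polymerase, lay above 0 without passing (0.29, adjusted p 0.0705). Lrpprc, which stabilises mitochondrial mRNA, lay at 35.1 to 43.6 CPM in IgG and 28.5 to 34.2 CPM in 5E1 (-0.34, SE 0.12, adjusted p 0.0542). No gene of this list was called without IgG replicate 1, IgG replicate 2, 5E1 replicate 1 or 5E1 replicate 3, and 5 were called lower without 5E1 replicate 2.

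Among 19 transcription factors and coactivators known to act on respiratory genes, 4 rose and 1 fell, a called share of 26.3% near the 23.2% of all genes tested. Myc, a growth regulator that binds many mitochondrial genes, rose from 40.6, 30.6 and 40.2 CPM in IgG to 72.5, 105 and 85.9 CPM in 5E1 (log2 fold change 1.24, SE 0.15, edgeR adjusted p 0.00067). Hcfc1, a chromatin cofactor, fell by 0.38 (SE 0.09, adjusted p 0.0107), and both calls held in all 17 alternative fits. Nfe2l2, a regulator of the antioxidant response, rose by 0.38 (SE 0.12, adjusted p 0.0373), a call lost without IgG replicate 1, 2 or 3 or 5E1 replicate 2 or 3 (adjusted p 0.059 to 0.139), with library size alone (0.154), with the replicate block (0.0782) and on fitting absence of Y-linked reads as a covariate (0.0501). Sirt1 and Sirt3 were the other genes that rose. The count of 5 called was 2 without IgG replicate 1 or 2, 3 without IgG replicate 3 and 2 without 5E1 replicate 2 or 3 or with the replicate block. With library size alone 1 was called higher and 5 lower. Nrf1, whose motif stands in 5 member promoters, lay at 29.9 to 30.4 CPM in IgG and 25.1 to 27.2 CPM in 5E1. It was lower in every 5E1 library but not called (-0.19, SE 0.09, edgeR adjusted p 0.155). Of those 5 members, Ndufa11 and Uqcr11 fell, and Cox6a1, Ndufa8 and Uqcrc1 were not called. A part of Nrf1 in their levels was not tested.

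Of 22 genes of the citric acid cycle and pyruvate entry, 2 rose and 2 fell, 18.2% against 23.2% of all genes tested. Pdk4, the kinase that shuts off pyruvate dehydrogenase, rose 5.41-fold from 14.8 to 20.2 CPM in IgG to 72.6 to 122 CPM in 5E1 (log2 fold change 2.44, SE 0.20, edgeR adjusted p 0.000216), in all 17 alternative fits as well. Cs, citrate synthase, fell from 163 to 180 CPM to 132 to 143 CPM (-0.31, SE 0.08, adjusted p 0.0214), a call lost without IgG replicate 1 or 2 or 5E1 replicate 1 (adjusted p up to 0.0809). Suclg2 fell by 0.28 with an adjusted p of 0.0449 that passed in 7 of 17 alternative fits and was lost, among others, without IgG replicate 1, 2 or 3 or 5E1 replicate 2 or 3. The count of 4 was 1 without IgG replicate 1 or 2 and 2 without IgG replicate 3 or 5E1 replicate 3, and with library size alone it was 1 higher and 7 lower.

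Of 20 glycolysis and lactate genes, 6 rose and 1 fell, 35% against 23.2% of all genes tested, with a median log2 fold change of -0.07. The genes that rose were Pfkfb3, Slc16a3, Aldoa, Slc16a1, Hk2 and Slc2a1, and Gapdh fell. Pfkfb3, which makes the activator of phosphofructokinase, rose from 79.3 to 103 CPM in IgG to 117 to 150 CPM in 5E1 (log2 fold change 0.58, SE 0.12, edgeR adjusted p 0.00641). Slc16a3, a lactate exporter, rose from 7.94 to 9.29 CPM to 12.9 to 13.7 CPM (0.66, SE 0.14, adjusted p 0.00726). Aldoa rose by a log2 fold change of 0.36 (SE 0.09, adjusted p 0.0133), with an adjusted p of up to 0.114 without IgG replicate 2 or with library size alone. The count of 7 called was 4 without IgG replicate 2, 3 without IgG replicate 3, 4 without 5E1 replicate 2 and 3 without 5E1 replicate 3. With library size alone 4 were called higher and 6 lower.

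Of 27 genes of protein import, cristae and the outer membrane, 5 fell, beside 11.1% lower among all genes tested. Vdac3, an outer membrane channel, fell from 55.3 to 59.2 CPM in IgG to 41.5 to 44.8 CPM in 5E1 (-0.40, SE 0.08, edgeR adjusted p 0.00588), in all 17 alternative fits too. Apoo, a cristae protein, fell by 0.97 (SE 0.25, adjusted p 0.0186), a call lost without any 1 of the IgG replicates or 5E1 replicate 3 (adjusted p up to 0.0658). The count of 5 lower was 1 without IgG replicate 1, 1 without IgG replicate 2, 2 without IgG replicate 3, 3 without 5E1 replicate 2 and 1 without 5E1 replicate 3, and it was 10 with library size alone. Of 9 antioxidant and uncoupling genes, of which 0 were called higher and 2 lower with library size alone, Gpx1, glutathione peroxidase, was the only one called (0.35, SE 0.11, adjusted p 0.0419), and it was called in 10 of 17 alternative fits, being lost without any 1 of the IgG replicates or without 5E1 replicate 1 or 3.

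**Figure D4:**
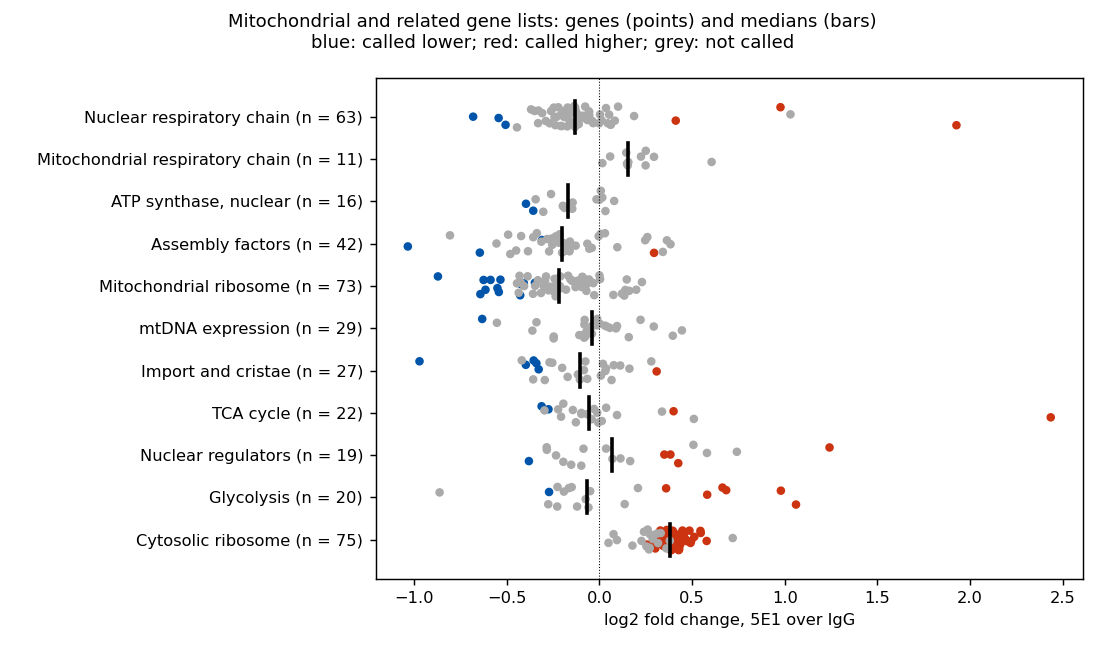
Log2 fold change of 5E1 over IgG (x axis) for each tested gene of the chain and of 9 related lists (points), with the list's median (bar) and the number tested in the label. Blue and red points were called lower and higher by edgeR. Medians ran from -0.22 for the mitochondrial ribosome to 0.38 for the cytosolic ribosome.

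Markers of other cell types were measured beside these genes, and counts are to be read against the 12.1% called higher among all genes tested. Of 12 neutrophil genes 9 were tested and these rose, and the summed level was 14 to 19.7 CPM in IgG and 134 to 220 CPM in 5E1, with Mpo and Ly6g at or near 0. Of 12 macrophage genes 8 rose, summing to 99.4 to 128 CPM in IgG and 153 to 280 CPM in 5E1. The macrophage count was 4 on leaving out IgG replicate 1, IgG replicate 2 or 5E1 replicate 2, and 5 on leaving out 5E1 replicate 3.

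Of 10 endothelial genes 1 rose, and their sums overlapped (163 to 193 CPM in IgG, 184 to 361 CPM in 5E1). Of 13 epithelial genes 2 rose, with sums of 448 to 702 CPM in IgG and 501 to 1534 CPM in 5E1 that also overlapped, 5E1 replicate 2 being highest. Without 5E1 replicate 3 these counts were 4 and 5, and without any 1 of the IgG replicates 1 epithelial gene was called. Of 7 erythroid genes edgeR called none, with 3 at an unadjusted p under 0.05, while DESeq2 called 1, limma-voom 3, edgeR without robust estimation 5, and edgeR 4 without 5E1 replicate 3 and 1 without 5E1 replicate 2. The erythroid sums were 160 to 199 CPM in IgG and 256 to 1104 CPM in 5E1, 5E1 replicate 3 being highest. With TMM scaling all 10 endothelial, 13 epithelial and 7 erythroid genes had log2 fold changes above 0, with medians of 0.515, 0.77 and 1.68. Among all genes tested 8117 of 16198 lay above 0. Without IgG replicate 2, 1 epithelial gene lay below 0.

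Of 10 mesenchymal genes 4 rose, and the 10 summed to 79600 to 97600 CPM in IgG and 117000 to 168000 CPM in 5E1. That count was 0 without IgG replicate 3, 2 without IgG replicate 2 or 5E1 replicate 3, 2 with library size alone, 7 by DESeq2 and 8 when low counts were not filtered. The part of these cells in the levels of the respiratory chain genes was not tested.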

How the data were processed

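Bulk RNA-seq of 6 libraries was used, 3 from pups of IgG-injected dams and 3 from pups of 5E1-injected dams, grouped by the library titles. The values deposited by the authors are unnormalised counts of reads, by gene symbol, in 1 file for each library. The submitters' processing notes name build mm10, the aligner STAR (2.5.0c), the counter HTSeq (0.6.0), and also DESeq2 (1.10.0), R (3.5.1), Picard (1.126) and bedtools (2.17.0). Sources used here give no annotation, strand setting or read length. The 5 HTSeq summary lines of each file, 36.4% to 54.7% of all reads, name no gene and entered neither library sizes nor tests.

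Genes were filtered with filterByExpr of edgeR 4.0.16 (minimum count 10, minimum total 15), scaled by TMM and tested in R 4.3.3 by quasi-likelihood (robust, group as the only term, two-sided), with Benjamini-Hochberg adjustment over all genes tested. Log2 fold changes use a prior count of 0.125. CPM are computed from the deposited counts and were divided by the length of the principal transcript to compare genes. Copies were sought by matching windows of 100 bases of each member's longest transcript in GENCODE M21 (GRCm38) to all other transcripts on both strands, and 21 nuclear members have an exon that overlaps another gene. Alternatives were RLE, library size alone, TMM without mitochondrial genes, DESeq2 1.42.0, limma-voom (limma 3.58.1), no low-count filter, a stricter filter (3 libraries reaching 5 CPM), non-robust dispersion, a replicate block, offsets for length and GC (96.8% of genes matched) and each library left out. A term for the 2 libraries without Y-linked reads, and the mitochondrial median without members sharing over 90% of windows, were added after seeing the data. The fit was run on simulated counts with a single fixed dispersion and 200 changed genes drawn from well-counted ones. It recovered 82.1% of 1.5-fold and 100% of 2-fold changes, and called 13 unchanged genes among 16139 tested. The simulation does not cover low-count members or the spread of the real libraries.

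Values were given for all mitochondrial members, the 4 members with the smallest p of each complex, tissue forms of complex IV and up to 3 genes of each related list. Genes named beyond this rule (Sirt1, Sirt3, Nrf1, further glycolysis genes and defining markers) were chosen after their values were seen. Members and lists were chosen with earlier results of these data known. Separate pups or litters are not stated for libraries within a group, so the p-values reflect spread among these libraries alone, and that spread may be technical. All replicate pairs differed by more than sampling noise (chi-square over degrees of freedom 14.8 to 50.5). Sample numbers run through IgG first and then 5E1, so handling order, if they give it, cannot be told apart from antibody. Some genes are not reported here.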

Additional observations from a re-analysis of the deposited data

How the results depend on the processing

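Over 17 alternative fits, Ndufa4, Ndufa11 and Cox6b2 were called in all, Ndufa6 in 16, Uqcr11 in 15 and Cox8b in 11 of the 16 that could test it. Of 587 alternative values of named members, 555 kept direction and side of the threshold or changed sign without being called, 24 newly passed, 8 no longer passed, and none turned direction while called. Nuclear members called numbered 22 with library size alone, 10 with no low-count filter and 18 with length and GC offsets. The nuclear median was -0.28 with library size alone and -0.22 with the offsets, and relative to the median of all genes it stayed between -0.191 and -0.0913 in the 17 fits. The mitochondrial median was 0.00908 with library size alone and 0.0132 with the offsets. With 1 library left out, genes called ranged from 2305 to 3704, nuclear members called from 4 to 9, mitochondrial members called stayed at 0, the nuclear median ranged from -0.178 to -0.0889 and the mitochondrial from 0.0551 to 0.319. The cause of these shifts was not tested. With the replicate block, 3220 genes, 5 nuclear members and 0 mitochondrial members were called. The labels do not say that equal numbers share a litter or day. Deviations of same-numbered libraries correlated at -0.11, -0.04 and -0.09, and those of differently numbered ones at -0.01 to 0.11. These correlations are all small and cannot settle whether libraries share a litter or day. Low reads limit Cox8b, Cox6a2, Cox7a1 and the mitochondrial genes with near-identical copies.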
